A study of Sus scrofa with 8 samples.

Results

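The enzymes of the urea cycle were followed in the liver of domestic pigs (Sus scrofa), in sows that were lactating and sows that were not. They were the probe sets whose gene symbol is CPS1, OTC, ASS1, ASL, ARG1 or NAGS, and where a gene had several probe sets the brightest by the mean of the 8 arrays was to stand for it. OTC, ASS1 and ARG1 were found under the deposited symbols, and ASL was found once the provisional symbol LOC100517757 was updated through its Entrez identifier. This gave 4 enzymes of the 6, each with 1 probe set, among 8146 gene symbols and 23999 tested probe sets on the Affymetrix Porcine array. No probe set carried the symbol CPS1 or NAGS. A probe set that the deposited table titles carbamoyl-phosphate synthetase 1, under the provisional symbol LOC100156131, was not matched to CPS1 in the gene tables. It is described beside the 4 enzymes, chosen after its values were seen, and is called the CPS1-titled probe set.

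The urea cycle turns ammonia released from amino acids into urea and runs mainly in hepatocytes. NAGS makes N-acetylglutamate, the activator without which CPS1 does not bind ammonia into carbamoyl phosphate. CPS1 and OTC work in mitochondria, and ASS1, ASL and ARG1 complete the cycle in the cytosol, where ARG1 releases urea and returns ornithine. In lactation the mammary gland draws amino acids from the blood for milk protein.

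All animals were female, and the groups differed in the labels only by lactation. Each group had 8 sows, RNA from 2 sows was mixed in equal amounts, and the resulting 4 pools a group went onto 1 array each, so a pool is the replicate and its value is an average of 2 animals. Breed, age and stage of lactation were not used here. Values are log2 signals after RMA, which corrects background, brings the arrays to one distribution and summarises the probes of a set, so a difference of 1 is a 2-fold difference of signal and levels of different probe sets cannot be ranked. Of 12 listed hepatocyte markers 11 had a probe set. ALB, serum albumin, here chosen after its values were seen, read 15.17 to 15.22 in the 8 pools. The highest signal of the arrays was also 15.22.

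Non-lactating pool 1 stood apart from the other pools in several measures. The 3' minus 5' signal of control transcripts, a reading of RNA integrity which is usually higher where RNA is more degraded, was 5.02 in this pool as a mean of actin, EF1a and GAPDH. It was 4.14 to 4.49 in the other non-lactating pools and 3.34 to 4.00 in the lactating pools, so it moved with lactation. As its ranges do not overlap between the groups, fits with this covariate cannot tell lactation and RNA integrity apart. The mean level of the 5 measured cholangiocyte markers was 6.91 in the same pool and 5.94 to 6.49 in the other 7.

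None of the 4 enzymes differed between the groups past the threshold, an adjusted p below 0.05 in limma's test across all probe sets, where 6.85% of probe sets and 8.63% of the brightest probe sets of genes were called. Without non-lactating pool 1 the share of all probe sets was 1.69%, 207 higher and 199 lower. All 4 had higher means in lactating pools, by 0.15 to 0.43 on the log2 scale or 1.11-fold to 1.35-fold, with a median of 0.23. Over all probe sets 47.8% had positive differences and the median difference was -0.0085, and over the brightest probe sets of all genes 52.6% were positive with a median of 0.0128. An unadjusted p below 0.05 was reached by ASS1 alone of the 4, and by 22.9% of all probe sets. Averaged over the 4 enzymes, the pools lay -0.06 to 0.07 from the non-lactating mean in the non-lactating group and 0.14 to 0.49 above it in the lactating group. The highest was lactating pool 3, where ARG1 lay 1.05 above its non-lactating mean and the other enzymes 0.17 to 0.45. How often averages of 4 genes separate the groups over the array was not tested.

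OTC, the mitochondrial enzyme that joins carbamoyl phosphate to ornithine to give citrulline, is encoded on the X chromosome, and its probe set aligned to positions 33785510 to 33839836 on the plus strand (here and below, of the array annotation's alignment, whose genome build is not named). Its log2 signal was 9.98, 10.35, 10.19 and 10.05 in non-lactating pools 1 to 4 and 10.36, 10.19, 10.43 and 10.50 in lactating pools 1 to 4. Lactating pools 1, 3 and 4 lay above every non-lactating pool, while lactating pool 2 lay below non-lactating pool 2, so the groups overlapped. The difference was 0.23 ± 0.10 (SE, n = 4 each, limma adjusted p = 0.221, exact permutation p = 0.0571), and its 95% interval ran from -0.001 to 0.455, or 0.999-fold to 1.37-fold. With the 3' minus 5' mean as a covariate the difference was -0.03 ± 0.12 (SE, limma adjusted p = 0.960).

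ASS1, the cytosolic enzyme that joins citrulline to aspartate, was the only enzyme of the 4 whose groups did not overlap, which was the case in 15.3% of all probe sets and 19.3% of the brightest probe sets of genes. The alignment of its probe set spans positions 285639679 to 285695236 of chromosome 1, plus strand. The log2 signal was 13.26, 13.53, 13.36 and 13.48 in non-lactating pools 1 to 4 and 13.57, 13.57, 13.86 and 13.55 in lactating pools 1 to 4. Lactating pool 3 stood above all others, and the other lactating pools lay just above the highest non-lactating pool. The difference was 0.23 ± 0.10 (SE, n = 4 each, limma adjusted p = 0.191, 2-sided exact permutation p = 0.0286, the smallest that 4 against 4 allow), with a 95% interval of 1.01-fold to 1.36-fold. It was 0.16 without lactating pool 3 (limma adjusted p = 0.370) and 0.14 ± 0.15 (SE) with the 3' minus 5' covariate.

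ASL, which splits argininosuccinate into arginine and fumarate, had the smallest spread of the enzymes, with an SD of 0.11 in both groups. Its alignment lies on chromosome 3, plus strand, from 15149384 to 15158638. The log2 signal was 10.95, 11.11, 11.17 and 10.94 in non-lactating pools 1 to 4 and 11.32, 11.19, 11.21 and 11.04 in lactating pools 1 to 4. Lactating pool 4 fell among the non-lactating pools and the other lactating pools lay above them. The difference was 0.15 ± 0.09 (SE, n = 4 each, limma adjusted p = 0.355, exact permutation p = 0.143), and the interval, 0.968-fold to 1.27-fold, spans both no difference and a modest one. After cyclic loess it was 0.08 (limma adjusted p = 0.609).

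ARG1, the liver arginase, had the largest mean difference of the 4 and the widest spread. The alignment of its probe set lies on chromosome 1, plus strand, from 33295251 to 33296758, with a match of 50.81% in the deposited alignment column against 96.93% to 99.71% for the other enzymes and the CPS1-titled probe set. The deposited table lists a further transcript that some probes of ARG1, and likewise of ASL, could also bind. The log2 signal was 13.06, 12.59, 12.58 and 12.60 in non-lactating pools 1 to 4 and 12.95, 13.11, 13.75 and 12.76 in lactating pools 1 to 4. Non-lactating pools 2, 3 and 4 were nearly identical, and non-lactating pool 1 lay above lactating pools 1 and 4. The SD was 0.43 among lactating pools and 0.23 among non-lactating pools, against 0.11 to 0.16 for OTC, ASS1 and ASL in either group. The difference was 0.43 ± 0.20 (SE, n = 4 each, limma adjusted p = 0.233, exact permutation p = 0.0857), with a 95% interval of 0.990-fold to 1.84-fold. Single pools moved this value, which was 0.23 without lactating pool 3 and 0.56 without lactating pool 4, with limma adjusted p-values of 0.398 and 0.163. With the 3' minus 5' covariate it was 0.81 ± 0.29 (SE, limma adjusted p = 0.418). Non-lactating pool 1 held the lowest OTC value of the 8 pools and the third highest ARG1 value.

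The CPS1-titled probe set had a lower mean in lactating pools, within a wide spread. It aligned to 2 places on chromosome 15, positions 106476520 to 106485732 on the plus strand and 106309434 to 106318268 on the minus strand. The log2 signal was 7.55, 6.96, 6.10 and 6.62 in non-lactating pools 1 to 4 and 6.83, 5.88, 6.88 and 6.50 in lactating pools 1 to 4. Non-lactating pool 1 was the highest and lactating pool 2 the lowest, and the ranges overlapped broadly. The median signal of the arrays was 6.55 to 6.60. Whether this probe set measures CPS1 was not tested. The difference was -0.29 ± 0.31 (SE, n = 4 each, limma adjusted p = 0.639, exact permutation p = 0.457), with a 95% interval of 0.511-fold to 1.31-fold. It was -0.04 when non-lactating pool 1 was left out, -0.53 when non-lactating pool 3 was, and 0.19 ± 0.45 (SE) with the 3' minus 5' covariate.

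**Figure D1:**
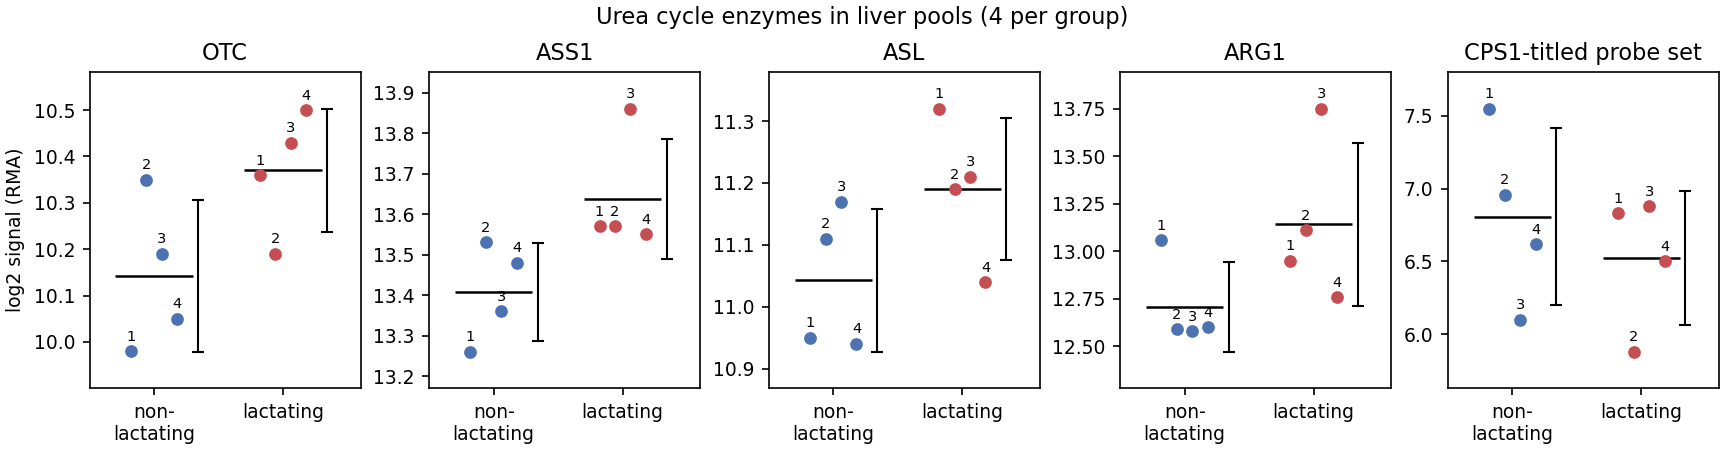
Log2 signal (RMA) of 4 urea cycle enzymes and the CPS1-titled probe set in 4 non-lactating (blue) and 4 lactating (red) liver pools, numbered by pool, each panel with its own axis that does not start at 0. Lines are group means and bars to their right are ±1 SD. The groups of ASS1 do not overlap, and ARG1 has its highest value, 13.75, in lactating pool 3.

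With any single pool left out, the differences of OTC ran from 0.17 to 0.30, those of ASS1 from 0.16 to 0.27, those of ASL from 0.11 to 0.20 and those of ARG1 from 0.23 to 0.56, and 0 of the 4 enzymes passed limma's threshold in any of these 8 fits. Without non-lactating pool 1 the median over the enzymes was 0.18. The lowest limma adjusted p among these fits of the 4 enzymes was 0.124, for OTC without non-lactating pool 2. After cyclic loess the differences were 0.17 for OTC, 0.15 for ASS1, 0.08 for ASL and 0.36 for ARG1. With arrays centred on their median they were 0.26, 0.26, 0.18 and 0.47. An unadjusted limma p below 0.05 was reached by 0 of the 4 after cyclic loess and by 3 after median centring.

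**Figure D2:**
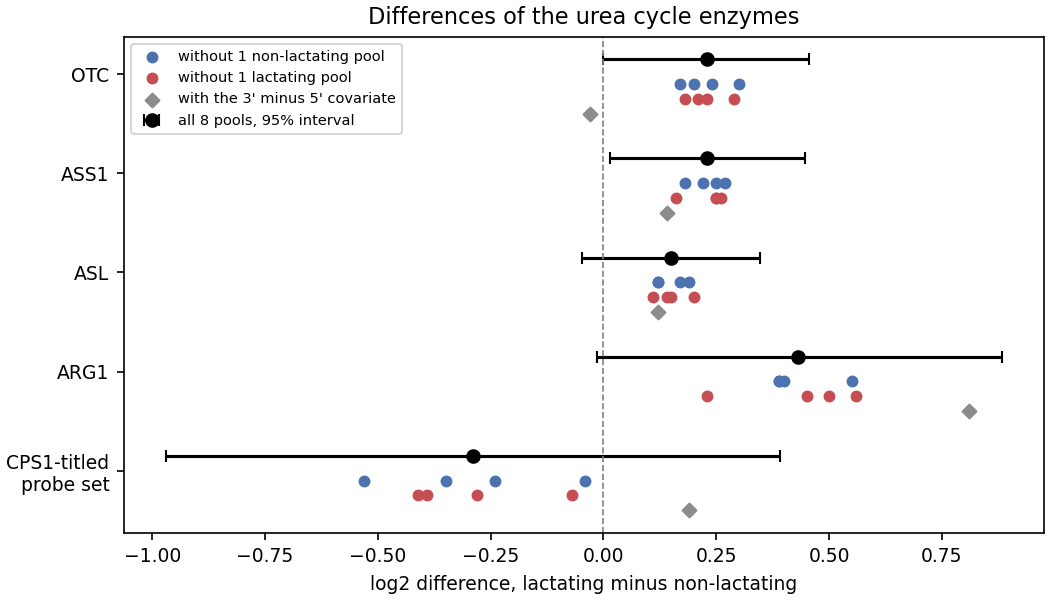
Log2 difference of lactating minus non-lactating pools for each enzyme. Black points with bars are the difference over 8 pools with its 95% interval, blue and red points leave out 1 non-lactating or 1 lactating pool, and grey diamonds include the 3' minus 5' mean as a covariate. The diamond of OTC lies at -0.03 and that of ARG1 at 0.81.

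Markers of other cell types were read beside the enzymes, against the 2.52% of the brightest probe sets of genes that fell and the 6.11% that rose. Of 8 measured endothelial markers all had negative differences and 4 fell (limma adjusted p below 0.05), with a median of -0.24, and the mean level of the list was 7.40 to 7.50 in non-lactating and 7.11 to 7.26 in lactating pools. PECAM1, an adhesion molecule of endothelium, fell by 0.43 ± 0.07 (SE) and passed with any single pool left out, with -0.11 ± 0.07 (SE) on its dimmer probe set. In place of 4, 1 endothelial marker fell without non-lactating pool 1 or 2, and 2 without non-lactating pool 4 or any of lactating pools 2, 3 and 4. Over all probe sets 746 fell with all 8 pools and 199 to 483 in these fits, so calls were lost across the array as well. With the covariate, where no probe set of the array passed, PECAM1 was at -0.38, TEK, an angiopoietin receptor, at -0.72 and CLDN5, a tight junction protein, at -0.55, against -0.43, -0.61 and -0.40 without it. Dimmer probe sets of TEK, which read 3.60 to 4.29, gave -0.05 ± 0.08 and -0.08 ± 0.07 (SE). Among stellate cell and fibroblast markers 7 of 10 differences were negative, 2 genes fell and the median was -0.43. Their mean level was 8.75 to 8.97 in non-lactating and 8.31 to 8.82 in lactating pools, 5 fell after cyclic loess, 6 without lactating pool 1, and 1 when either non-lactating pool 1 or lactating pool 4 was left out. Over all probe sets 801 fell after cyclic loess and 678 without lactating pool 1. Of 11 hepatocyte markers 6 were positive and 5 negative, SERPINA1, the alpha-1-antitrypsin gene, fell by 0.32 ± 0.06 (SE), none rose, and the median was 0.01. APOH was higher by 0.38 ± 0.15 (SE, limma adjusted p = 0.160) and RBP4 lower by 0.13 ± 0.06 (SE, limma adjusted p = 0.268), neither past the threshold. Without non-lactating pool 1 APOH was at 0.23. The mean of the hepatocyte list was 14.30 to 14.45 in the 8 pools, near the top of the range of the arrays, where changes are compressed and a shift could be missed. Leaving out non-lactating pool 1 put SERPINA1 at -0.32 (limma adjusted p = 0.0597) and leaving out lactating pool 4 at -0.33 (0.0526), neither past the threshold. Macrophage and neutrophil markers had a mean level of 7.41 to 7.57 against 7.38 to 7.43, and 0 of 12 passed limma's threshold (2 at an unadjusted p below 0.05), with 1 that fell without non-lactating pool 3. In that fit 611 of all probe sets fell. Of 8 lymphocyte markers, with a mean level of 5.55 to 5.72 against 5.42 to 5.61, only CD8A, a T cell coreceptor, fell, by 0.60 ± 0.13 (SE), and without non-lactating pool 1 or 4 or lactating pool 1, 2 or 4 it was at -0.49 to -0.60 with adjusted p-values of 0.0526 to 0.0704. Of 5 cholangiocyte markers 0 passed limma's threshold or an unadjusted p of 0.05. Of all probe sets 22.9% had an unadjusted p below 0.05. The part of cell composition in the differences of the enzymes was not tested. In bulk RNA, fewer cells of a type and less RNA per cell cannot be told apart.

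The genes that deliver nitrogen to the cycle or carry its intermediates had 8 measured members of 15, of which 6 had positive differences, 2 rose and none fell, with a median of 0.18 (of all probe sets 3.74% rose and 3.11% fell, and of the brightest of each gene 6.11% and 2.52%). GOT2, the mitochondrial aminotransferase of the aspartate that ASS1 uses, read 12.18 to 12.41 in non-lactating and 12.72 to 12.87 in lactating pools. The groups stood well apart, the difference was 0.50 ± 0.08 (SE, limma adjusted p = 0.0132), and GOT2 passed with any single pool left out. GLUD1, glutamate dehydrogenase, which releases ammonia from glutamate in mitochondria, read 13.78, 13.94, 13.90 and 13.79 in non-lactating pools 1 to 4 and 14.01, 14.33, 14.31 and 14.29 in lactating pools 1 to 4. It rose by 0.38 ± 0.09 (SE, limma adjusted p = 0.0365), but of the 8 fits that leave out 1 pool it passed only without lactating pool 1 (difference 0.46, adjusted p = 0.0187), with 0.35 to 0.41 and adjusted p-values of 0.0539 to 0.101 in the others. GOT1, the cytosolic aspartate aminotransferase, read 11.09 to 11.55 against 11.61 to 12.06 without overlap, which 19.3% of the brightest probe sets of genes showed. GOT1 did not pass (0.38 ± 0.13, SE, limma adjusted p = 0.108). SIRT3 (0.19 ± 0.10, SE), SIRT5, a mitochondrial deacylase that acts on CPS1 in mice (0.08 ± 0.08, SE), and SLC25A22, a glutamate carrier (0.17 ± 0.13, SE), did not pass either. SIRT5 was at 0.04 without non-lactating pool 2 and 0.12 without non-lactating pool 4. SLC25A22 was at 0.09 without lactating pool 3 and 0.29 without lactating pool 1.

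Of the genes that use arginine, ornithine or citrulline outside the urea cycle, 11 of 17 were measured, 8 had positive differences, 2 rose and none fell (6.11% and 2.52% of genes by the brightest probe set), with a median of 0.15. ODC1, ornithine decarboxylase, which commits ornithine to polyamines, read 10.80, 10.67, 10.80 and 11.07 in non-lactating pools 1 to 4 and 11.76, 11.21, 12.12 and 11.57 in lactating pools 1 to 4. Every lactating pool lay above every non-lactating pool. No overlap, in either direction, was seen in 19.3% of the brightest probe sets of genes. ODC1 rose by 0.83 ± 0.17 (SE, limma adjusted p = 0.0246). Its call was lost without non-lactating pool 1, 2 or 3 or lactating pool 4, with differences of 0.82, 0.78, 0.82 and 0.86 and adjusted p-values of 0.0502 to 0.0696. SRM, spermidine synthase, the next enzyme of that route, read 7.50 to 8.12 in non-lactating and 8.56 to 8.90 in lactating pools. SRM rose by 0.76 ± 0.14 (SE, limma adjusted p = 0.0179) and passed with any single pool left out. OAZ1, the antizyme that restrains ODC1, did not pass (0.17 ± 0.08, SE).

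ARG2, the mitochondrial arginase encoded by a separate gene, read 8.33, 8.52, 7.94 and 8.01 in non-lactating pools 1 to 4 and 9.54, 8.76, 9.64 and 8.25 in lactating pools 1 to 4. Lactating pools 1 and 3 were high, and lactating pool 4 fell among the non-lactating pools. The difference, 0.85 ± 0.29 (SE), did not pass (limma adjusted p = 0.106) and passed without lactating pool 4 (1.11, adjusted p = 0.0448). A dimmer probe set of ARG2 gave 0.51 ± 0.19 and the dimmest 0.06 ± 0.07 (SE). ARG1 and ARG2 shared their highest pool, lactating pool 3, and their lowest lactating pool, pool 4. NOS3, the endothelial nitric oxide synthase that competes for arginine, read 6.09 to 6.49 against 5.87 to 6.12 (-0.33 ± 0.10, SE, limma adjusted p = 0.0814) and passed without non-lactating pool 4 (-0.41, adjusted p = 0.0482). ALDH18A1, which makes the precursor of ornithine and proline, gave 0.57 ± 0.21 (SE, limma adjusted p = 0.135).

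Ammonium that escapes the urea cycle is known from rodent liver to be caught as glutamine by hepatocytes around the central vein. Among 10 measured pericentral genes of 15, RHBG and GLUL rose, none fell (6.11% and 2.52% of genes by the brightest probe set), and the median was -0.05. GLUL, glutamine synthetase, read 12.82, 12.85, 13.52 and 13.22 in non-lactating pools 1 to 4 and 13.58, 13.56, 13.79 and 13.88 in lactating pools 1 to 4, so that non-lactating pool 3 nearly reached the lactating pools. It rose by 0.60 ± 0.16 (SE, limma adjusted p = 0.0490), close to the threshold, and of the 8 fits that leave out 1 pool it passed only without non-lactating pool 3 (0.74, adjusted p = 0.0243). Without any of the others its adjusted p was 0.0646 to 0.127 with differences of 0.51 to 0.65. Of the other probe sets of GLUL, one rose by 1.18 ± 0.24 (SE, limma adjusted p = 0.0227) and one gave -0.13 ± 0.08 (SE). RHBG, an ammonium transporter of the Rhesus family, read 7.14 to 7.78 in non-lactating and 8.25 to 8.56 in lactating pools without overlap. Over the array 19.3% of the brightest probe sets of genes had no overlap. RHBG rose by 0.98 ± 0.14 (SE, limma adjusted p = 0.0116) and passed with any single pool left out. With the 3' minus 5' covariate, where 0 probe sets passed limma's threshold and 2474 had an unadjusted p below 0.05, the differences were 0.57 for RHBG, 0.26 for GLUL, 0.47 for GOT2, 0.28 for GLUD1, 0.80 for ODC1 and 0.52 for SRM. CYP2E1, another pericentral gene, gave -0.03 ± 0.07 (SE), here chosen after its value was seen, and CYP3A29 gave -0.29 ± 0.12 (SE, limma adjusted p = 0.173). CYP2E1 read 14.35 to 14.56, near the top of the range of the arrays, where a shift could be missed. Of 7 measured periportal genes, from the zone where rodent urea cycle enzymes are highest, 0 passed limma's threshold (1 at an unadjusted p below 0.05) and the median was 0.02. Over the array 8.63% of the brightest probe sets of genes passed, and 22.9% of all probe sets had an unadjusted p below 0.05. APOA4, an apolipoprotein, had the widest difference of the periportal list, 2.34 ± 0.70 (SE, limma adjusted p = 0.0767), and passed without lactating pool 1. PIGR (-0.51 ± 0.25, SE, limma adjusted p = 0.252) and AGT (-0.17 ± 0.13, SE, limma adjusted p = 0.484) of the same list had the other sign. With 1 pool left out, PIGR ran from -0.64 (non-lactating pool 3) to -0.33 (lactating pool 2). AGT ran from -0.23 (non-lactating pool 4) to -0.07 (lactating pool 3).

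**Figure D3:**
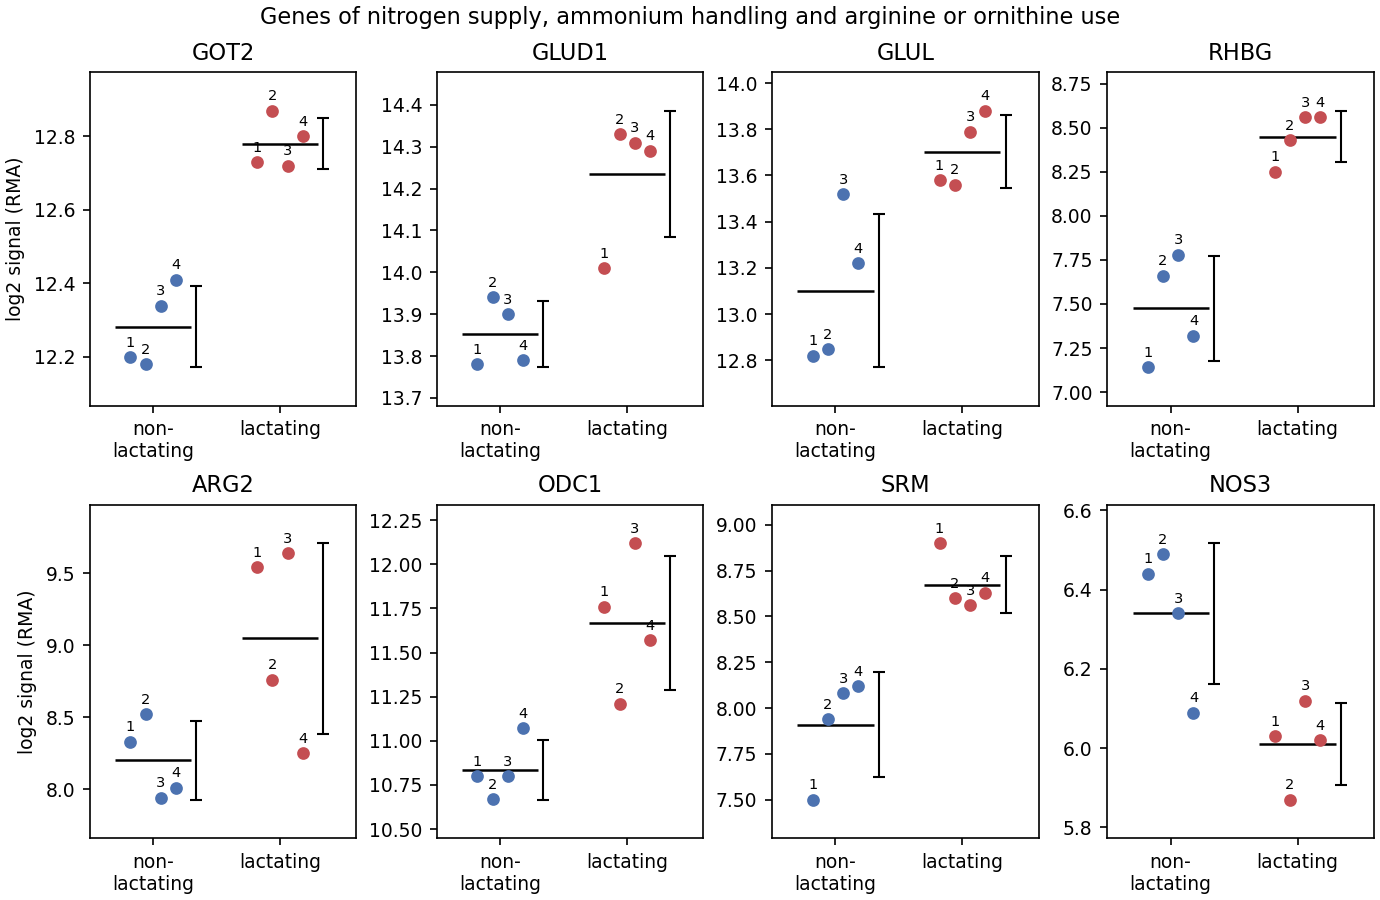
Log2 signal (RMA) by pool of GOT2 and GLUD1 (nitrogen supply), GLUL and RHBG (ammonium handling), and ARG2, ODC1, SRM and NOS3 (use of arginine or ornithine), with pools, means and SD drawn as for the enzymes and an axis of its own for each gene. GOT2, GLUD1, GLUL, RHBG, ODC1 and SRM show no overlap between the groups, while ARG2 and NOS3 do overlap. No overlap was seen in 15.3% of all probe sets and 19.3% of the brightest probe sets of genes. The genes drawn were among those with the smallest p of their lists, which favours groups that do not overlap.

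Enzymes of amino acid breakdown, the source of the nitrogen, were represented by 13 of 33 listed genes, of which 8 had positive differences and 0 passed limma's threshold (4 at an unadjusted p below 0.05), with a median of 0.11. Of genes by the brightest probe set 8.63% passed, and of all probe sets 22.9% had an unadjusted p below 0.05. TAT, tyrosine aminotransferase, read 11.25 to 11.84 in non-lactating and 10.53 to 11.54 in lactating pools (-0.47 ± 0.20, SE, limma adjusted p = 0.198). GPT2, an alanine aminotransferase, gave -0.37 ± 0.16 (SE), ASRGL1, an asparaginase, 0.45 ± 0.15 (SE), AGXT2, the alanine-glyoxylate aminotransferase 2, 0.34 ± 0.12 (SE), KMO, a kynurenine hydroxylase, 0.27 ± 0.16 (SE), and FTCD, of histidine breakdown, -0.15 ± 0.10 (SE). Values of both signs therefore stood in this list. Single pools moved several of them, with TAT at -0.31 without lactating pool 3, GPT2 at -0.24 and KMO at 0.12 without non-lactating pool 4, and FTCD at -0.07 without lactating pool 4. Other pools left out moved them the other way. TAT was at -0.65 without lactating pool 1 and GPT2 at -0.48 without lactating pool 3. KMO was at 0.33 without non-lactating pool 2 and FTCD at -0.20 without lactating pool 2.

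Of 16 listed regulators of urea cycle genes 11 were measured, 6 had positive differences, 0 passed limma's threshold (1 at an unadjusted p below 0.05), and the median was 0.05. The shares were 8.63% of genes by the brightest probe set and, for the unadjusted p, 22.9% of all probe sets. CEBPA, a factor that is needed for urea cycle gene expression in mouse liver, averaged 7.31 ± 0.27 without and 7.68 ± 0.22 with lactation (SD over 4 pools each), with overlap (difference 0.37 ± 0.15, SE, limma adjusted p = 0.175). A dimmer probe set of CEBPA gave 0.00 ± 0.10 (SE). CEBPB, the related factor, gave 0.23 ± 0.17 (SE), KLF15, which drives amino acid breakdown in mice, -0.18 ± 0.09 (SE), PPARGC1A 0.26 ± 0.21 (SE), FOXO1 0.09 ± 0.09 (SE) and CREB1 -0.11 ± 0.13 (SE). With 1 pool left out, CEBPB was as low as 0.14 (non-lactating pool 3), PPARGC1A 0.10 (lactating pool 2) and FOXO1 0.03 (non-lactating pool 1), and CREB1 was at -0.01 without lactating pool 3. The other ends of these ranges were 0.39 for CEBPB, 0.42 for PPARGC1A, 0.14 for FOXO1 and -0.20 for CREB1. Dimmer probe sets gave 0.20 ± 0.13 for FOXO1 (SE, limma adjusted p = 0.418) and -0.28 ± 0.11 for CREB1 (SE, limma adjusted p = 0.160).

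**Figure D4:**
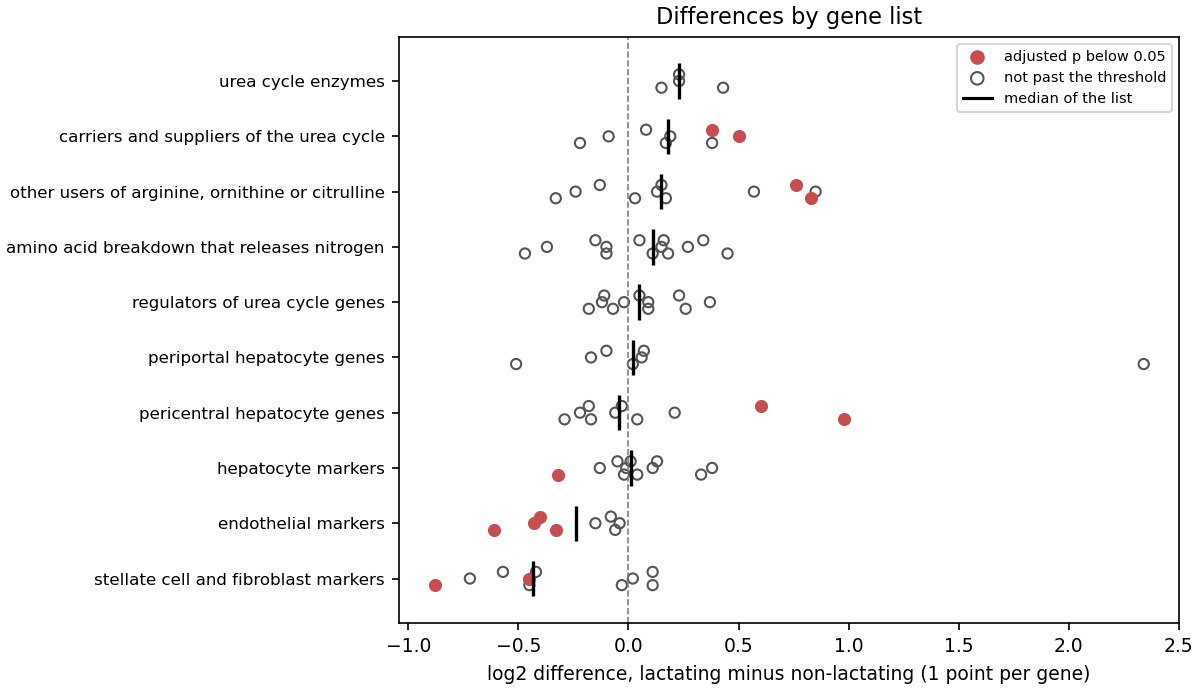
Log2 difference of lactating minus non-lactating pools for each measured gene of 10 lists, 1 point per gene, with red points for genes past limma's adjusted p of 0.05 and a black bar at the median of each list. The 4 urea cycle enzymes all lie between 0.15 and 0.43 and none is red, and endothelial and stellate cell genes lie mostly below 0.

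The genes whose log2 signal followed each enzyme most closely over the 8 pools were ranked among 7092 genes by Pearson's r, as a description of these pools. They were FAM122A and WDR93 for OTC (r = 0.972 and 0.967), DNTTIP1 and LOC100156879, titled ubiquinol-cytochrome c reductase, for ASS1 (0.969 and 0.953), LOC100518032 and ZNF584 for ASL (0.972 and 0.934) and LOC100515911 and GTF2F1 for ARG1 (0.956 and 0.889). CHD7 and CHSY1 were closest to the CPS1-titled probe set (0.972 and 0.962). None of these genes passed limma's threshold, with adjusted p-values of 0.108 to 0.692, and no gene was among the closest to more than 1 enzyme. Such values are the highest among many candidates over 8 points, all of which share the same arrays.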

How the data were processed

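Liver RNA of 16 sows in 8 pools was measured on Affymetrix Porcine arrays. The deposited table gives a log2 signal for each of 24123 probe sets, made by the authors with Affymetrix Expression Console and RMA per the submitters' processing notes (versions not given in the sources used here). A further deposited table of log2 values differed by at most 0.005. The number of arrays limits the precision, and 8 columns of ratios between equally numbered pools were not used.

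Here 124 control probe sets were left out and 23999 were tested with limma 3.58.1 (lmFit, eBayes, no filter) in R 4.3.3 (package data.table, version 1.17.8), lactating minus non-lactating, 2-sided, adjusted over all probe sets by Benjamini and Hochberg. SE and intervals come from this fit, the adjusted p-values throughout are limma's, and exact permutation tests compared the 4 against 4 pool values. Symbols were updated through Sscrofa11.1 tables of genes, by Entrez identifier for 9065 probe sets, by transcript for 29 and by accession for 4 more, while 2135 kept their symbol, 327 named several genes and 12439 none. The brightest probe set stood for a gene. Positions are those of the deposited alignment column, whose assembly is not named in words, and exon annotation on it was not used. The scripts were tested on simulated data. Nothing in the labels says that pools shared no handling, so p-values measure the spread between these pools.

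The members and the 4 pathway and 9 marker lists were chosen with earlier results of these data known. The result of 1 marker list is not reported here. Named genes were all enzymes, up to 6 per pathway list and 3 per marker list with the smallest p, and the 2 genes closest to each enzyme by Pearson's r among genes above the lowest 25% of mean signal. Alternatives were another normalization (cyclic loess, median centring), the other table, a filter on the dimmest 25% of probe sets (mean log2 signal below 4.91), an intensity trend, robust eBayes, the replicate number as a block, the 3' minus 5' covariate, an equal-variance test and each pool left out. Python 3.11.15, pandas 2.3.3, numpy 2.4.6 and matplotlib 3.10.9 were used.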

Additional observations from a re-analysis of the deposited data

Results flagged for a closer look

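In 9 of 128 groups of 4 pools examined, the highest or lowest pool lay far from the other 3 relative to the range of the group (Dixon's test at the 95% level). Chance flags about 1 group in 20. Among the enzymes, ASS1 read 13.86 in lactating pool 3 against 13.55 to 13.57 in the other lactating pools, and ARG1 read 13.06 in non-lactating pool 1 against 12.58 to 12.60 in the other non-lactating pools. Among nitrogen suppliers, GLUD1 read 14.01 in lactating pool 1 against 14.29 to 14.33, GOT1 read 11.09 in non-lactating pool 3 against 11.48 to 11.55, and SLC25A22 read 4.97 in non-lactating pool 1 against 5.23 in each of the others. OAZ1 read 12.73 in lactating pool 4 against 12.58 to 12.59. KMO read 11.39 in non-lactating pool 4 against 11.96 to 12.02. Among cell type markers, CLDN5 read 7.45 and CD3G 5.43 in non-lactating pool 3, against 7.28 to 7.30 and 5.16 to 5.19 in the other non-lactating pools.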

How the results depend on the processing

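The count of enzymes past the threshold stayed at 0 of 4 in the 8 fits that leave out a pool and in the 8 other alternatives run on them, with limma adjusted p-values of 0.124 to 0.960 for OTC, 0.141 to 0.792 for ASS1, 0.258 to 0.814 for ASL and 0.163 to 0.418 for ARG1. With 1 pool left out, differences ran from 0.17 to 0.30 for OTC, 0.16 to 0.27 for ASS1, 0.11 to 0.20 for ASL, 0.23 to 0.56 for ARG1 and -0.53 to -0.04 for LOC100156131. With the 3' minus 5' covariate the sign turned for OTC (-0.03) and LOC100156131 (0.19), and also, none of them called in either fit, for APOH (-0.03), CHD7 (0.08), CHSY1 (0.01), CSF1R (0.02), EPCAM (0.42), FAM122A (-0.04), FOXO1 (-0.02), FTCD (0.01), OAZ1 (-0.02), SLC25A22 (-0.05) and WDR93 (-0.02), and the cause was not tested. With this covariate GOT2, GLUD1, ODC1, SRM, RHBG and GLUL kept their sign and lost their call. GLUD1 (0.30, adjusted p = 0.0564) and GLUL (0.52, 0.0807) also lost it after cyclic loess. Of all probe sets 1643 passed, 897 higher and 746 lower. With a pool left out the count ran from 406 to 1424, 207 to 746 higher and 199 to 678 lower, and was lowest without non-lactating pool 1. With the covariate 0 probe sets passed limma's threshold, 0 higher and 0 lower, with 2474 at an unadjusted p below 0.05. In the equal-variance test 0 passed after adjustment, 0 higher and 0 lower, with 4964 at an unadjusted p below 0.05. The replicate number as a block gave 1790 probe sets, ARG1 at 0.43 with an adjusted p of 0.226 and OTC at 0.23 with 0.266. ASRGL1 (adjusted p = 0.0246), TAT (0.0421) and APOA4 (0.0319) passed with the block, TEK did not (0.0514), and 2 endothelial markers fell in place of 4. Deviations of equally numbered pools correlated at 0.072 to 0.243 across probe sets, not every pool was closest to its own number, and the labels do not pair the pools. The mean of all probe sets of a gene could not differ, since each enzyme had 1.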
